A study of Bos taurus with 8 samples.

Results

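The subunits of RNA polymerase II, TFIID, the other general transcription factors and Mediator were followed through bovine preimplantation development. Members were taken by symbol from the annotation of the array, as every gene whose name begins with POLR2, TAF and a digit, MED and a digit, GTF2 or GTF3, together with TBP and TBPL1. This gave 74 genes of 12552, read by 162 of the 27952 probes with a gene symbol. Of 92 genes written down by role, 18 were not matched and are not analysed here, among them POLR2A, which encodes the catalytic subunit of the polymerase, TAF1 and GTF2B.

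RNA polymerase II transcribes the protein-coding genes but does not find promoters by itself. TFIID, built of TBP and a set of TBP-associated factors (TAFs), recognises the core promoter, TFIIA, TFIIB, TFIIE, TFIIF and TFIIH complete the initiation complex, and Mediator carries signals from activators to the polymerase through its head, middle, tail and kinase modules. The early embryo starts with RNA stored in the oocyte and switches to transcription of its own genome, which in cattle takes place in cleavage stages before the morula.

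Expression was measured in morulae collected on day 5 after fertilization and in whole blastocysts, inner cell mass (ICM) and trophectoderm (TE) of day 9, with 2 biological replicates of pooled embryos or pieces per group. All embryos were untreated, were made in vitro from slaughterhouse oocytes and bull sperm, and were cultured in synthetic oviduct fluid. ICM and TE were cut apart by hand, and some TE cells stay attached to the ICM in this procedure, so the ICM samples hold both. Every sample was hybridized on a two-colour array against the same blastocyst pool, with replicate 1 in Cy3 and replicate 2 in Cy5.

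Values are log2 ratios of the sample over that pool, replicate 1 first, so that blastocysts lie near 0 by design and a value of 1 means a doubled level. Groups were compared with limma, with p-values adjusted over all 43653 gene probes, each gene was read by its brightest probe, and it was called where that p lay under 0.05 and the difference reached 2-fold. These p-values rest on the spread of the replicate samples, and with pooled embryos a smaller number of cells of one type cannot be told apart from less RNA per cell. Median intensities of the sample channel ran from 229.9 to 536 over median backgrounds of 47.5 to 60.1, and 90.3% to 94.8% of gene probes lay above the background. Across all gene probes the 2 morula arrays correlated at 0.92, the TE arrays at 0.52 and the ICM arrays at 0.37. The blastocyst arrays, which carried nearly the same RNA as the pool, correlated at -0.55. The study lists its 2 blastocyst samples as identical to 2 blastocyst pools, and the reference was itself a pool of blastocysts. The blastocyst samples may thus not be independent of the reference. Of the markers of the dissected parts, all 4 measured epiblast genes were called higher in the ICM, NANOG by 13.2-fold and SOX2 by 8.67-fold, and GATA3 alone of 5 TE genes was called higher in the TE, by 2.07-fold. None of 4 primitive endoderm genes was called between ICM and TE by its brightest probe. DAB2 was 2.10-fold higher in the TE (adjusted p = 0.084), and a dimmer probe was called that way (log2 difference -1.35, adjusted p = 0.038). FST gave 1.26 toward the ICM (adjusted p = 0.28) and GATA6 0.18. HNF4A gave -0.03 by a probe of mean intensity 252. The study, which chose probes by another rule, lists HNF4A and FST as higher in the ICM. TFAP2A, ASCL2 and KRT19 of the TE list lay toward the TE without being called, at log2 differences of ICM minus TE of -0.90, -0.63 and -0.58. Their adjusted p-values were 0.059, 0.24 and 0.12. TFAP2C gave 0.46 toward the ICM (adjusted p = 0.26) by a probe saturated on 5 arrays, and its next brightest probe, not saturated, gave -0.09.

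Most members were well above the background, which bears on the precision of their ratios and not on their level against other genes. Their brightest probes had a median intensity of 2002 and ranged from 73.5 to 31237, with 51 of 74 over 1000, and the median over all genes was 973. TAF12 was saturated on 1 array. GTF3C3 and TAF1A were not well above background on either ICM array.

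The members stood highest in the morula. Between blastocyst and morula, 15 of 74 members were called higher in the morula (20.3%), where 7.15% of all genes were, and 3 were called higher in the blastocyst (4.05%), against 10.2% of all genes. At an adjusted p under 0.05 without a fold minimum, 34 members were higher in the morula and 4 in the blastocyst (18.7% and 21.1% of all genes). The difference of blastocyst minus morula was negative for 61 of 74 members (82.4%) and for 45.9% of all genes, with medians of -0.34 and 0.04. Among the 51 members brighter than 1000, 12 were called higher in the morula (23.5%) and 3 in the blastocyst, where 9.24% and 16.1% of all genes over 1000 were. With median centring in place of loess, 23 members were called higher in the morula and 2 in the blastocyst, against 10.0% and 8.54% of all genes. RNA known from oocytes also moved with stage: 7 of 9 measured oocyte genes, among them GDF9 and BMP15, were called higher in morulae, with summed intensities of 22430 and 37741 there against 2804 to 6669 on the other 6 arrays and 1 of 9 at background in the ICM, and the part of stored RNA in the members' values was not tested.

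**Figure D1:**
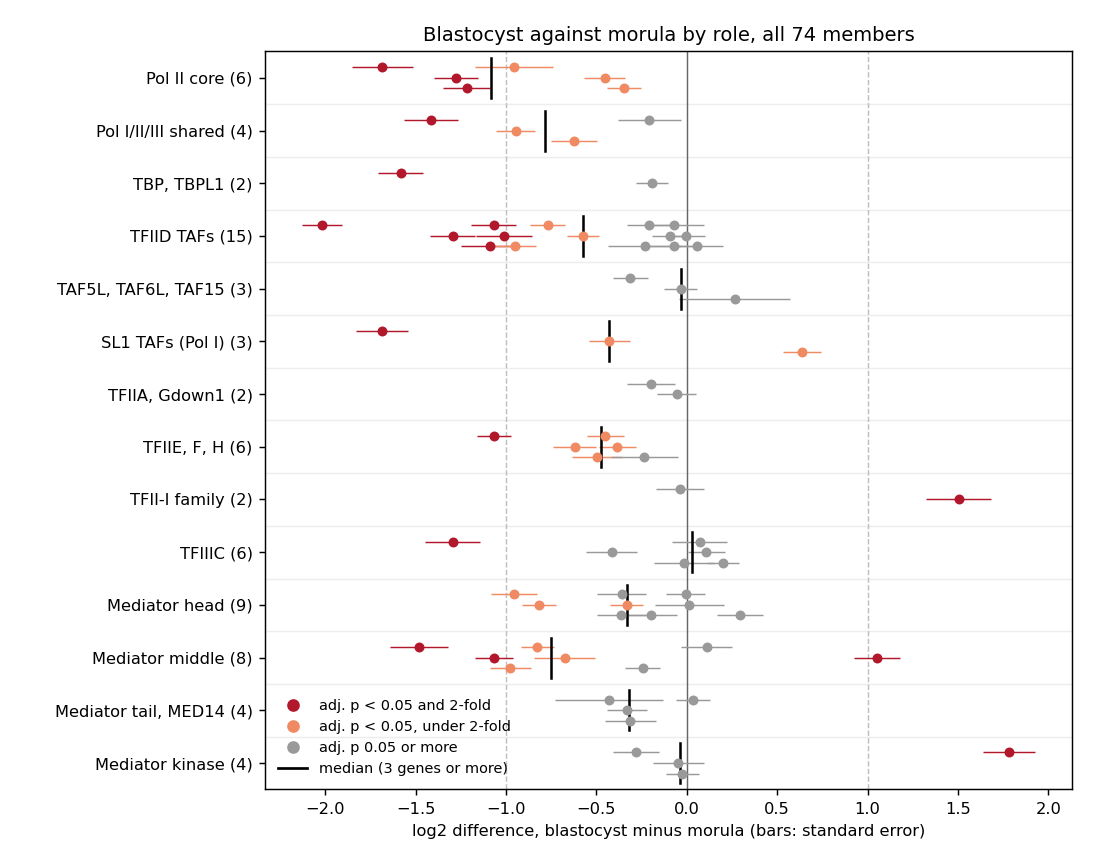
Log2 difference of blastocyst minus morula for the brightest probe of all 74 members, grouped by role with the number of genes in brackets; bars are standard errors of the limma fit, black lines are medians, and dashed lines mark 2-fold. All 10 measured polymerase subunits lie left of 0, the TAFs of TFIID spread from TAF5 at -2.02 to TAF6 at 0.06, and only MED12, GTF2IRD1 and MED19 lie past 2-fold on the right.

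All 10 measured subunits of RNA polymerase II had higher levels in the morula, under loess, normexp, median centring and the deposited normalized values alike. Of these, 4 were called, where 7.15% of all genes were called higher in the morula. At an adjusted p under 0.05 alone 9 passed, against 18.7% of all genes in that direction. The median difference was -0.95, and 45.9% of all genes had a negative difference. The 6 core subunits particular to this polymerase had a median of -1.09, and the 4 subunits shared with RNA polymerases I and III a median of -0.79.

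POLR2G, which with POLR2D forms the stalk of the enzyme, had log2 ratios of 1.33 and 1.77 in morulae, -0.07 and -0.20 in blastocysts, 0.08 and -0.03 for ICM and -0.21 and -0.42 for TE. It was 3.22-fold higher in morulae than in blastocysts (log2 difference -1.68, SE 0.17, adjusted p = 7.1e-04). POLR2E, a shared subunit at the jaw of the enzyme, stood at 1.28 and 1.35 in morulae and 0.12 and -0.33 in blastocysts, with 0.33 and 0.04 for ICM and -0.33 and -0.30 for TE, and differed 2.67-fold between morula and blastocyst (SE 0.15 on the log2 scale, adjusted p = 9.1e-04). For both genes the morula arrays lay above every other array and the other 3 groups lay around 0.

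POLR2J, an assembly subunit paired with POLR2C, had 1.11 and 1.23 in morulae, 0.03 and -0.24 in blastocysts, -0.08 and -0.22 for ICM and -0.31 and -0.25 for TE, a 2.42-fold difference from morula to blastocyst (adjusted p = 6.1e-04). POLR2B, the second largest subunit, which forms the active centre with POLR2A, had 1.37 and 1.10 in morulae, -0.08 and 0.11 in blastocysts, 0.19 and 0.24 for ICM and 0.22 and 0.12 for TE. Its difference was 2.32-fold (adjusted p = 9.4e-04), and a second of its 4 probes gave 2.43-fold. The morula was again apart from all other samples in both genes, but POLR2B did not have its lowest mean in the TE as POLR2G and POLR2J did.

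The remaining polymerase subunits moved less. POLR2D had 0.73 and 1.13 in morulae against -0.36 and 0.31 in blastocysts, a 1.94-fold difference (adjusted p = 0.018). POLR2K, a small zinc-binding shared subunit, had 0.93 and 0.92 against 0.02 and -0.07 (1.93-fold, adjusted p = 0.0011). Its other probe, nearly as bright at a mean intensity of 2049 against 2084, gave a log2 difference of -0.32. POLR2L, POLR2C and POLR2I were 1.54-fold, 1.37-fold and 1.27-fold higher in morulae, each with an adjusted p under 0.05. POLR2H, a shared subunit, did not pass (log2 difference -0.21, adjusted p = 0.45), and neither did POLR2M, which encodes Gdown1, a protein that binds the polymerase and restrains it (-0.20, adjusted p = 0.34). Measured subunits of one enzyme thus ranged from 3.22-fold to 1.15-fold, and whether they differ from each other was not tested.

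**Figure D2:**
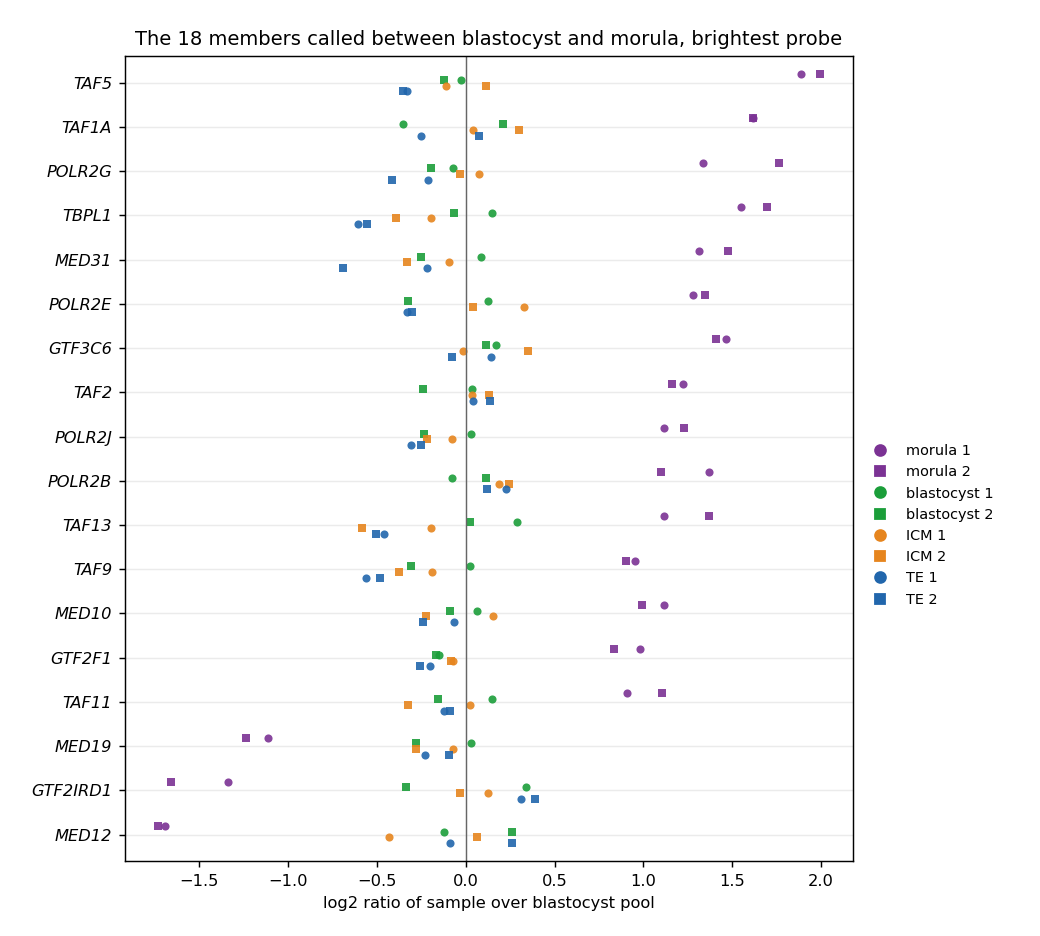
Log2 ratio of sample over blastocyst pool on each of the 8 arrays for the 18 members called between blastocyst and morula (circles replicate 1, squares replicate 2). The morula arrays lie to the right of all other arrays in 15 genes, from TAF5 to TAF11, and to the left of all others in MED19, GTF2IRD1 and MED12.

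TFIID held the member with the largest difference and several that lay close to 0. Of 15 measured TFIID TAFs, 5 were called higher in the morula and none in the blastocyst, where 7.15% and 10.2% of all genes were. At an adjusted p under 0.05 alone 8 were higher in the morula, against 18.7% of all genes. The median difference was -0.58. TAF5, a WD-repeat protein of the TFIID core, had the largest difference of all members. It had 1.89 and 1.99 in morulae, -0.03 and -0.13 in blastocysts, -0.11 and 0.12 for ICM and -0.33 and -0.35 for TE, and was 4.05-fold higher in morulae than in blastocysts (log2 difference -2.02, SE 0.11, adjusted p = 1.0e-04). Its other probe gave 4.16-fold. The morula arrays did not approach any other array, and both TE arrays lay below both blastocyst arrays.

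TAF2, a large TFIID subunit that contacts the initiator region of promoters, had 1.22 and 1.16 in morulae, 0.04 and -0.24 in blastocysts, 0.04 and 0.13 for ICM and 0.04 and 0.14 for TE (2.45-fold, adjusted p = 6.0e-04). TAF13 and TAF11 encode histone-fold proteins that pair with each other. TAF13 had 1.12 and 1.37 in morulae, 0.29 and 0.02 in blastocysts, -0.20 and -0.58 for ICM and -0.46 and -0.51 for TE (2.12-fold, adjusted p = 0.0035). TAF11 had 0.91 and 1.11, then 0.15 and -0.16, then 0.02 and -0.32, and -0.12 and -0.09, in the same order of groups (2.01-fold, adjusted p = 0.0040). Another of its 3 probes, all of mean intensity 1370 or more, gave a log2 difference of -0.02. In TAF13 the ICM and TE lay below the blastocysts, whereas in TAF11 the 3 day 9 groups overlapped.

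TAF9, which pairs with TAF6 and is also a subunit of the coactivator SAGA, had 0.96 and 0.90 in morulae, 0.02 and -0.31 in blastocysts, -0.19 and -0.38 for ICM and -0.56 and -0.48 for TE (2.10-fold, adjusted p = 0.0012). TAF8, which carries TAF10 into TFIID, fell short of 2-fold at 0.82 and 0.82 in morulae against -0.04 and -0.21 in blastocysts (1.93-fold, adjusted p = 0.0016). TAF7, which binds TAF1, differed 1.49-fold (adjusted p = 0.0039). TAF10 and TAF12, histone-fold proteins of both TFIID and SAGA, did not pass, at log2 differences of 0.00 and -0.21 (adjusted p = 0.99 and 0.26), and TAF4 and TAF6 of the TFIID core gave -0.07 and 0.06 (adjusted p = 0.79 and 0.81).

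TBP itself had 0.29 and 0.25 in morulae and 0.14 and 0.01 in blastocysts. It had 0.31 and 0.19 for ICM and 0.02 and -0.08 for TE. Between blastocyst and morula it did not pass (log2 difference -0.19, adjusted p = 0.17). Its 4 probes ran from -0.70 to 0.08 in that comparison, none of them called. TBPL1, a TBP-related factor that binds TFIIA but not the TATA box, had 1.55 and 1.70 in morulae, 0.15 and -0.06 in blastocysts, -0.20 and -0.39 for ICM and -0.61 and -0.56 for TE. It was 2.99-fold higher in morulae (log2 difference -1.58, SE 0.12, adjusted p = 3.0e-04). Morulae, blastocysts, ICM and TE followed each other in TBPL1 without overlap, while in TBP the ICM arrays reached the level of the morulae by its brightest probe. Over the 4 TBP probes the difference of ICM minus morula ran from -0.80 to 0.34.

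Paralogous members were set side by side. TAF9B, the paralog of TAF9, had a difference of -0.77 (adjusted p = 0.0017) beside -1.07 for TAF9. TAF5L and TAF6L, the SAGA counterparts of TAF5 and TAF6, gave -0.03 and 0.26 (adjusted p = 0.83 and 0.60), and TAF5 stood at -2.02. TAF5L was dim, read by 1 probe of mean intensity 129 against 1387 for the brightest TAF5 probe. TAF7L, known from germ cells, was dim and gave -0.07 beside -0.58 for TAF7, and TAF4B gave -0.09 beside -0.07 for TAF4. In Mediator, MED12L gave -0.02 beside 1.78 for MED12, and MED13L gave -0.28 beside -0.05 for MED13. The difference between paralogs was not tested.

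**Figure D3:**
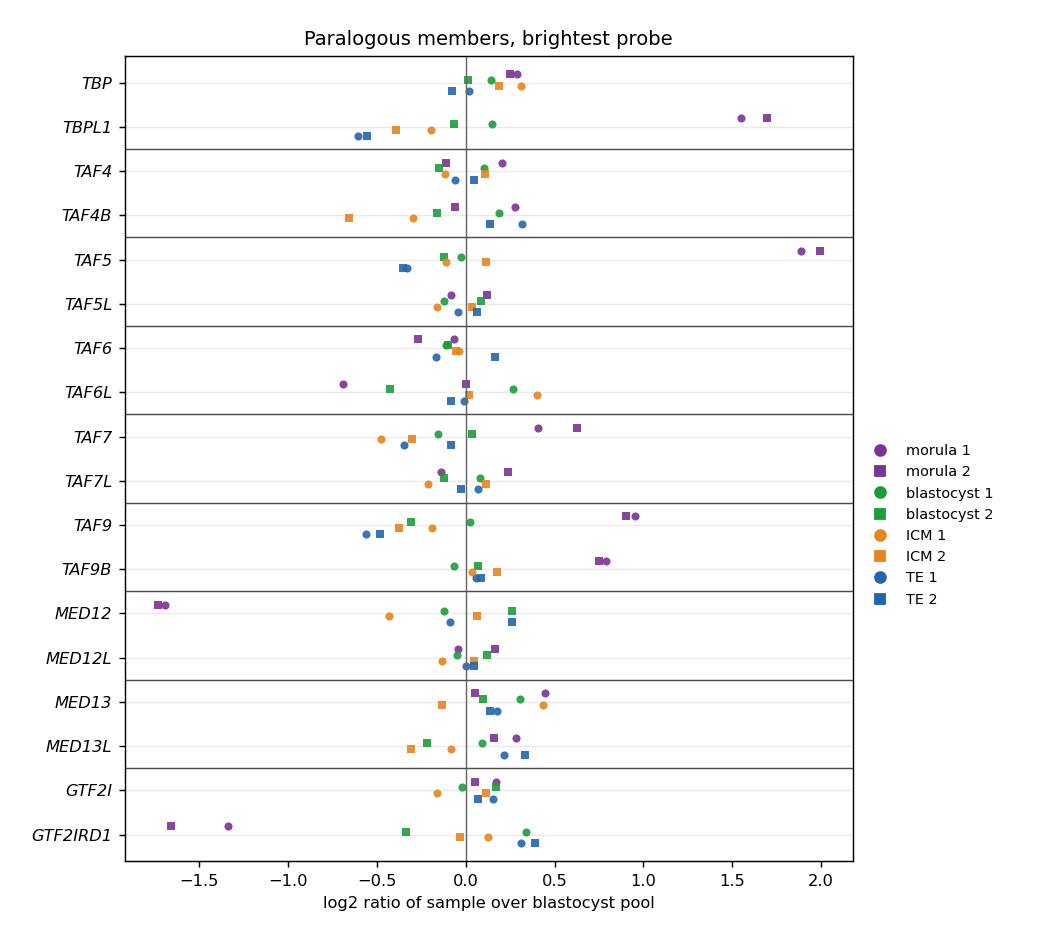
Log2 ratio of sample over blastocyst pool on each array for 9 pairs of paralogous members, brightest probe of each gene (circles replicate 1, squares replicate 2). TBPL1, TAF5, TAF9 and TAF9B have both morula arrays to the right of all others, MED12 and GTF2IRD1 have them to the left, and TAF4B separates ICM from TE.

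Among the factors that complete the initiation complex, all 6 measured subunits of TFIIE, TFIIF and TFIIH had negative differences, with a median of -0.47. An adjusted p under 0.05 was reached by 5. Of all genes, 45.9% had a negative difference, 18.7% reached that adjusted p toward the morula and 7.15% were called there. GTF2F1, the large subunit of TFIIF, was the one called, at 0.98 and 0.83 in morulae, -0.15 and -0.17 in blastocysts, -0.07 and -0.08 for ICM and -0.20 and -0.26 for TE (2.09-fold, adjusted p = 4.1e-04). GTF2E1 of TFIIE, GTF2F2 of TFIIF and GTF2H1 of TFIIH were 1.54-fold, 1.41-fold and 1.37-fold higher in morulae with adjusted p-values of 0.0093, 0.037 and 0.018. GTF2H4 of TFIIH had a brightest probe at -0.38 (adjusted p = 0.032) and another at 0.54 (adjusted p = 0.021), so its direction depended on the probe. GTF2H5, the smallest TFIIH subunit, and GTF2A2, the small subunit of TFIIA, did not pass (-0.24 and -0.06, adjusted p = 0.41 and 0.76).

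GTF2IRD1 encodes a DNA-binding protein of the TFII-I family, which shares its name with the general factors but is not part of the initiation complex. It ran the other way, at -1.34 and -1.66 in morulae, 0.34 and -0.33 in blastocysts, 0.13 and -0.03 for ICM and 0.31 and 0.39 for TE, and was 2.84-fold higher in blastocysts (log2 difference 1.50, SE 0.18, adjusted p = 0.0014). GTF2I, the founding member of that family, gave -0.04 (adjusted p = 0.87). The morula arrays of GTF2IRD1 lay below every other array, and its blastocyst replicates were the farthest apart of the day 9 groups.

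The subunits of the factors for RNA polymerases I and III did not move as groups. Of 6 TFIIIC subunits, which recruit polymerase III to transfer RNA genes, only GTF3C6 was called, at 1.47 and 1.41 in morulae, 0.17 and 0.12 in blastocysts, -0.01 and 0.35 for ICM and 0.14 and -0.08 for TE (2.45-fold, adjusted p = 0.0013). The other 5 TFIIIC genes lay between -0.42 and 0.20 without passing. Apart from GTF3C2 at 2990, these were dim, with mean intensities of 142 to 532, and GTF3C6 stood at 433. The part of low signal in their small differences was not tested. Of the 3 TAFs of SL1, the promoter factor of polymerase I, TAF1A had 1.61 and 1.62 in morulae against -0.35 and 0.21 in blastocysts, 0.04 and 0.30 for ICM and -0.25 and 0.08 for TE (3.22-fold, adjusted p = 3.9e-04). TAF1A was dim, with 1 of 2 blastocyst arrays well above background, and its other probe gave a log2 difference of 0.00. TAF1B was lower in blastocysts (-0.43, adjusted p = 0.030) and TAF1D higher (0.64, adjusted p = 0.0050). TAF15, an RNA-binding protein of the FET family, did not pass (-0.31, adjusted p = 0.058).

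In Mediator the 25 measured subunits gave 2 calls in each direction between blastocyst and morula, 8.0% each way and so near the shares of all genes, 7.15% toward the morula and 10.2% toward the blastocyst. At an adjusted p under 0.05 alone, 8 were higher in the morula (32%) and 2 in the blastocyst (8.0%), where 18.7% and 21.1% of all genes were. The difference was negative for 19 of the 25 (76%), against 45.9% of all genes, with a median of -0.31. Both genes called higher in the morula lay in the middle module. MED31, a small conserved subunit, had 1.31 and 1.48 in morulae, 0.08 and -0.25 in blastocysts, -0.09 and -0.33 for ICM and -0.22 and -0.69 for TE (2.79-fold, adjusted p = 9.8e-04). MED10, which joins the middle module to the MED14 scaffold, had 1.11 and 0.99 in morulae, 0.06 and -0.09 in blastocysts, 0.15 and -0.22 for ICM and -0.06 and -0.24 for TE (2.09-fold, adjusted p = 6.4e-04), and its other 2 probes gave 2.13-fold and 2.07-fold. In both, the morula arrays stood clear of all others and the day 9 groups overlapped.

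MED4 and MED9 of the middle module and MED17 and MED6 of the head module lay just under the 2-fold minimum, at 1.97-fold, 1.77-fold, 1.94-fold and 1.76-fold higher in morulae, each with an adjusted p of 0.0022 or less. No head subunit was called out of 9, and 3 had an adjusted p under 0.05, with MED30, a metazoan subunit, the third (1.26-fold, adjusted p = 0.038). MED26, which helps hand the polymerase to elongation factors, was 1.60-fold higher in morulae (adjusted p = 0.026). The tail subunits MED15, MED23 and MED24, which bind activators, gave -0.33, -0.31 and 0.04, and none passed. MED14, which holds the modules together, did not pass either (-0.43, adjusted p = 0.35). MED29, MED11 and MED22 lay between -0.20 and 0.01, MED18 and MED20 both at -0.36, MED27 at 0.30 and MED21 at 0.11, none of them past the threshold. A dimmer probe of MED18 gave -0.89 (adjusted p = 0.0013).

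The 2 Mediator genes called higher in blastocysts were MED19 of the middle module and MED12 of the kinase module. MED19, which links Mediator to the polymerase, had -1.11 and -1.24 in morulae, 0.03 and -0.28 in blastocysts, -0.07 and -0.28 for ICM and -0.23 and -0.09 for TE (2.07-fold higher in blastocysts, adjusted p = 0.0015). MED12, which activates the kinase CDK8 with cyclin C, had -1.69 and -1.73 in morulae, -0.12 and 0.26 in blastocysts, -0.43 and 0.06 for ICM and -0.09 and 0.26 for TE. It was 3.44-fold higher in blastocysts (log2 difference 1.78, SE 0.14, adjusted p = 3.3e-04). In both genes the morulae lay apart and the other groups overlapped, but their probes did not give 1 answer.

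The 8 probes annotated to MED12 ran from 4.38 to -0.82 between blastocyst and morula. The second brightest, with a mean intensity of 3463, had -4.24 and -4.90 in morulae, -0.23 and -0.15 in blastocysts, -0.60 and -0.47 for ICM and 0.14 and 0.17 for TE, a 20.9-fold difference (log2 difference 4.38, SE 0.20, adjusted p = 6.7e-05). Its intensity was 297 and 292 in morulae against 3598 and 7211 in blastocysts. The third, with a mean intensity of 1317, ran the other way, at 0.97 and 0.59 in morulae against 0.00 and -0.08 in blastocysts (log2 difference -0.82, adjusted p = 0.0046). The other 5 probes lay between -0.12 and 0.28 and none passed. For MED19 the 3 probes gave 1.05, 0.62 and -0.64, all with an adjusted p under 0.05. Which transcripts these probes read was not tested, so the direction given for MED12 and MED19 is that of their brightest probes.

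**Figure D4:**
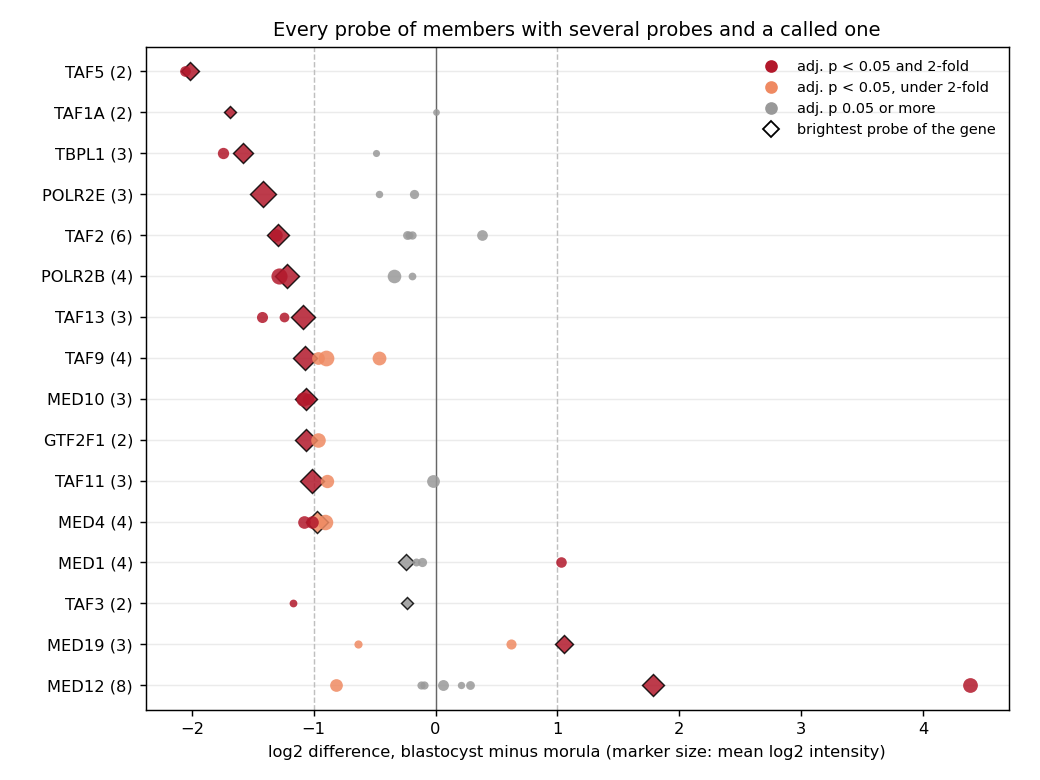
Log2 difference of blastocyst minus morula for every probe of the 16 members with more than 1 probe and at least 1 called probe, number of probes in brackets; diamonds are brightest probes, marker size follows mean log2 intensity and dashed lines mark 2-fold. The probes of TAF5, TAF13 and MED10 lie together, those of MED1, MED19 and MED12 do not.

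Across the 162 member probes, 26 were called higher in the morula and 5 in the blastocyst, where 5.53% and 6.85% of all gene probes were. Of the 48 members with more than 1 probe, 13 were called by the brightest one, and 7 of these had a further probe called the same way. For TAF5, TAF13 and MED10 all probes were called, and no member had probes called in opposite directions. POLR2E was called by 1 of 3 probes, TAF2 by 2 of 6 and POLR2B by 2 of 4, and their remaining probes lay between -0.46 and 0.38 without passing. TAF11 was called by 1 of 3 probes, TAF9 by 1 of 4, TBPL1 by 2 of 3 and GTF2F1 by 1 of 2. Their probes nearest to no difference gave -0.02, -0.47, -0.49 and -0.97 in that order. For MED4, TAF3 and MED1 a dimmer probe was called and the brightest was not. MED4 gave -0.98 by its brightest probe and -1.08 and -1.01 by the called ones. TAF3, a TAF that reads a histone mark of active promoters, gave -0.23 and, by a probe of mean intensity 128, -1.17 (adjusted p = 0.0068). MED1, the subunit contacted by nuclear receptors, gave -0.24 and, by a probe that was well above background on neither morula array, an at least 2.04-fold higher level in blastocysts (adjusted p = 0.0027).

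The comparison of ICM with TE asks whether the parts of the blastocyst differ in these genes. No member was called with limma, where 1.56% of all genes were. An unadjusted limma p under 0.05 was reached by 13 members (17.6%), 8 toward the ICM and 5 toward the TE, and by 21.8% of all genes. The differences of ICM minus TE ran from -0.70 to 0.95 with a median of 0.02. All 162 member probes stayed uncalled, where 1.19% of all gene probes were called, so dimmer probes gave no other result.

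TAF4B was the 1 member with an adjusted p under 0.05, a level that 1.8% of all genes reached in the direction of the TE and 2.62% in that of the ICM. It encodes a TAF4 paralog known from the ovary and germ cells, and had -0.30 and -0.66 for ICM and 0.32 and 0.14 for TE, with 0.28 and -0.06 in morulae and 0.19 and -0.16 in blastocysts. It was 1.63-fold higher in the TE (log2 difference -0.70, adjusted p = 0.024), below the 2-fold minimum, and the ICM arrays lay below all 6 others. Its 2 dim probes gave -0.23 and -0.05 without passing, and TAF4 gave 0.00.

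MED14 had the largest difference of ICM minus TE, 0.95, but its ICM replicates stood at 1.59 and 0.39 against 0.00 and 0.08 in the TE, and it did not pass (SE 0.30, adjusted p = 0.18). MED26 had 0.67 and 0.59 in the ICM against -0.03 and 0.00 in the TE (0.64, adjusted p = 0.12). MED27, a subunit at the junction of head and tail, had 0.11 and 0.28 against -0.27 and -0.47 (0.56, adjusted p = 0.082). MED21 of the middle module had -0.66 and -1.0 in the ICM against -0.16 and -0.52 in the TE (-0.49, adjusted p = 0.15). The arrays of ICM and TE did not overlap in these 4 genes, which was also so for 39.2% of all members and 44.7% of all genes. Of the 10 polymerase subunits, 9 had a positive difference, between 0.04 and 0.50, and POLR2K a negative one. A negative difference was found for 48.2% of all genes. None of the 10 subunits passed, and with median centring in place of loess 6 of them were positive.

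**Figure D5:**
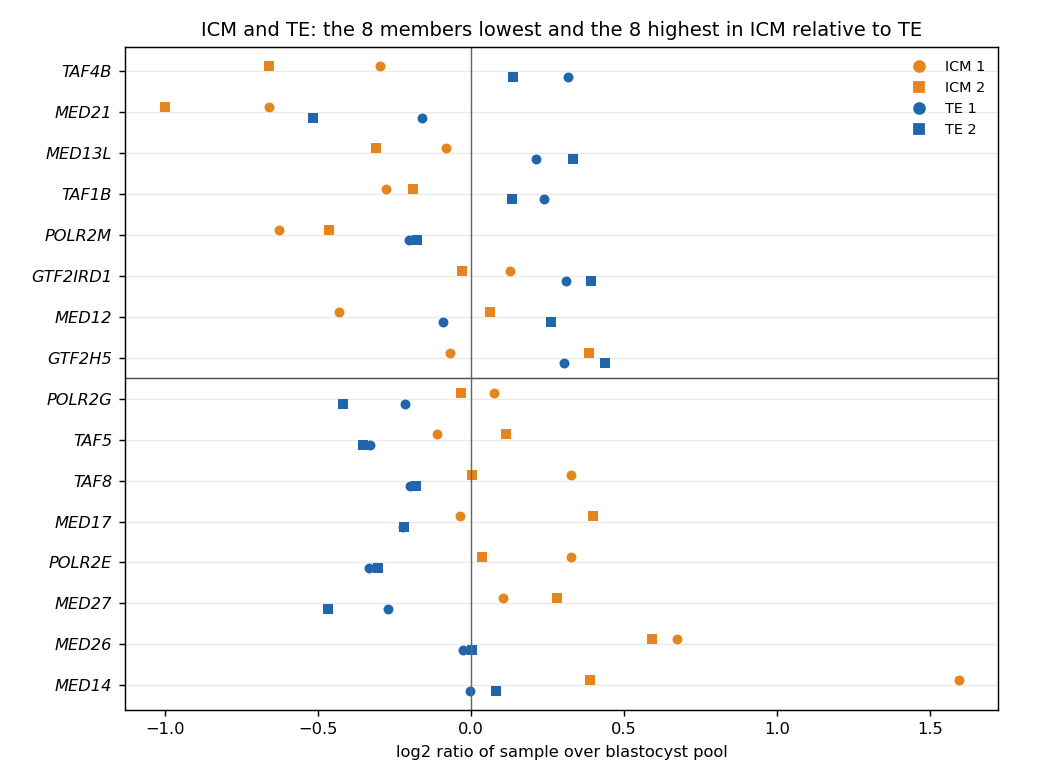
Log2 ratio of sample over blastocyst pool in ICM and TE for the 8 members with the lowest and the 8 with the highest difference of ICM minus TE (circles replicate 1, squares replicate 2). TAF4B has both ICM arrays left of both TE arrays, and the ICM arrays of MED14 stand far apart from each other.

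ICM and TE were each set against the morula as well. These comparisons and that of blastocyst with morula share the 2 morula arrays, so their values are given side by side and not as separate support. Against the ICM, 16 members were called higher in the morula and 3 in the ICM, where 6.72% and 9.97% of all genes were. Against the TE, 19 members were called higher in the morula and 3 in the TE, where 9.14% and 11.1% of all genes were. With median centring the counts were 28 and 2 against the ICM (11.6% and 7.82% of all genes) and 24 and 2 against the TE (12.0% and 9.51%).

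Of the genes higher in the morula, 14 members (18.9%) were called against all 3 day 9 groups and 20 (27.0%) against at least 1, where 5.40% and 10.1% of all genes were. GTF2F1 was called against blastocyst and TE and missed 2-fold against the ICM (1.98-fold). POLR2D was called against ICM and TE, by 2.34-fold and 2.49-fold (adjusted p = 0.0067 and 0.0043), and POLR2K against the ICM (2.24-fold, adjusted p = 5.4e-04). The other POLR2K probe gave a log2 difference of -0.74 for ICM minus morula and was not called. MED17, MED6 and TAF8 were called against the TE, by 2.14-fold, 2.09-fold and 2.01-fold, and stood at 1.62-fold, 1.93-fold and 1.58-fold against the ICM. MED12, GTF2IRD1 and MED19 were called lower in the morula against each of the 3 groups (4.05% of members and 7.98% of all genes). TAF1A was at least 2.72-fold higher in the morula than in the ICM, where it was not well above background on either array.

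The differences from the morula were often larger for the TE than for whole blastocysts, though smaller in the called members TAF2, POLR2B and MED19. Over all genes, 9.14% were called higher in the morula against the TE and 7.15% against blastocysts. TAF5 gave 4.05-fold for blastocysts, 3.83-fold for the ICM and 4.86-fold for the TE, and TBPL1 gave 2.99-fold, 3.78-fold and 4.61-fold. MED31 gave 2.79-fold, 3.04-fold and 3.60-fold, TAF13 2.12-fold, 3.10-fold and 3.31-fold, and POLR2G 3.22-fold, 2.88-fold and 3.64-fold. GTF2IRD1, in the other direction, gave 2.84-fold, 2.93-fold and 3.61-fold. Of the 15 members called higher in the morula than in blastocysts, 12 had their lowest day 9 mean in the TE (80%), against 58.2% of the 898 genes called that way over the array, and in 7 of the 15 (46.7%) both TE arrays lay below both ICM arrays, near the 47.8% of those 898 genes.

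Over all 74 members the mean was highest in the morula for 56 (75.7%), against 36.6% of all genes, and lowest in the TE for 33 (44.6%), against 24.3%. The morula was lowest for 9 members (12.2%) and 45.2% of all genes, and among those not lowest in the morula the TE was lowest for 33 of 65 members (50.8%) and 44.4% of all genes. It was highest in blastocysts for 6, in the ICM for 4 and in the TE for 8. These orders of means take no account of the replicate spread.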

How the data were processed

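The authors deposited scanner output of two-colour bovine arrays, hybridized with amplified RNA, as the mean intensity of a spot in either channel (ImaGene), with no normalization or background subtraction. They also deposited normalized log2 ratios of sample over pool, which served as an alternative and correlated with the log2 ratios of their arrays at 0.727 to 0.993. In R 4.3.3 with limma 3.58.1, control spots were left out, arrays were normalized by loess without background subtraction, ratios were turned to sample over pool, and 4 group means and a dye term were fitted to 8 arrays with empirical Bayes moderation (3 residual and 3.17 prior degrees of freedom) and Benjamini-Hochberg adjustment. This replaces the permutation test of the study's methods. A probe was above background where it exceeded its local mean background by 2 SD. Each gene was read by its brightest probe, since probe positions were not used here. A fold against a group at background on both arrays is a lower bound, taken at the measured signal, which lay above the dimmest detected probes. Dye equals replicate number in every group, so the dye term is the replicate block. Replicate differences correlated between groups at 0.201 to 0.486 over 6 pairs, and at 0.338 for ICM with TE. The dissection yields ICM and TE of the same embryo, but whether samples of the same number shared embryos was not known here. The fit was tested on simulated data. Alternatives were normexp, median centring, Aquantile (which leaves ratios as they are), the deposited ratios, the brighter 60% of probes, other probe rules and fold minimums, only the 4 arrays compared, no block and each replicate left out. Tables and figures used Python 3.11.15, pandas 2.3.3, numpy 2.4.6 and matplotlib 3.10.9. Members, lists, tests and naming rule were chosen with earlier results of these data known. The rule names all members, in full those called, those called by another probe, paralogs and up to 2 per role that did not pass, and up to 4 other pathway genes per comparison.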

Additional observations from a re-analysis of the deposited data

How the results depend on the processing

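The counts of called members moved most with the fold minimum, the centring and the choice of probe. With a 1.5-fold minimum 26 members were higher in the morula than in blastocysts, 36 were called between ICM and morula, 34 between TE and morula and 1 between ICM and TE. With no fold minimum these were 34, 41, 42 and 1, and 18.7% of all genes were higher in the morula than in blastocysts. With median centring in place of loess 23 were higher in the morula than in blastocysts (10.0% of all genes). Between ICM and morula 30 were then called, where 7.82% of all genes were higher in the ICM and 11.6% in the morula. The other counts here have no share of all genes beside them and show only how the members' own calls moved. With the probes of a gene averaged 9 were higher in the morula, 1 in the blastocyst, 11 were called between ICM and morula and 14 between TE and morula. Leaving out each replicate gave 14 to 17 members higher in the morula and 2 to 3 higher in the blastocyst, 17 to 19 between ICM and morula, 21 to 22 between TE and morula and 0 between ICM and TE. Without blastocyst replicate 2 or morula replicate 2, TAF13 fell to -0.98 and -0.84 and TAF11 to -0.88 and -0.81, and without blastocyst replicate 2 TAF9 fell to -0.93. MED19 lost its call between blastocyst and morula with normexp (0.83), median centring (0.86), averaged probes (0.35) and without blastocyst replicate 1 (0.93). With averaged probes the same happened to MED12 (0.71), TAF9 (-0.85), TAF1A (-0.84), POLR2B (-0.76), POLR2E (-0.69), TAF11 (-0.64) and TAF2 (-0.48). TAF1A and GTF3C6 lost theirs with normexp (-0.85 and -0.95). The cause was not tested. Over the 3 comparisons with morula, 61 values of called members under the alternatives lost their call and 0 reversed. In the fit with no replicate block the counts were the same, 15 and 3 between blastocyst and morula, 0 between ICM and TE, 19 between ICM and morula and 22 between TE and morula, and the block changed no call of a named member. With 2 arrays a group the fit left 3 residual degrees of freedom. The brightest probes of TAF1A, TAF3, TAF5L, TAF7L, TAF15 and GTF3C5 lay near the background, at mean intensities of 73.5 to 151. This limits the precision of their ratios.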

Other observations

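Partners of these complexes that the symbols did not capture were read from a list of 78 genes, of which 57 were measured: elongation and pausing factors, SAGA, kinase partners, assembly factors and phosphatases of the polymerase tail. Between blastocyst and morula 12 of the 57 were called higher in the morula (21.1%) and 0 in the blastocyst with limma, where 7.15% and 10.2% of all genes were, and at an adjusted p under 0.05 alone 21 were higher in the morula (36.8%) and 5 in the blastocyst (8.77%), against 18.7% and 21.1% of all genes. ELL2, an elongation factor of the super elongation complex, had log2 ratios of 2.22 and 2.36 in morulae, -0.05 and -0.51 in blastocysts, -0.39 and -0.70 for ICM and -0.31 and -0.32 for TE, a 5.95-fold difference between morula and blastocyst. SUPT4H1, the small subunit of the pausing and elongation factor DSIF, was 3.17-fold higher in morulae, with 1.44 and 1.60 there and -0.17 and -0.13 in blastocysts. RTF1, linked to the PAF1 complex, was 3.39-fold higher, with blastocyst replicates far apart at 0.35 and -1.09, and TADA1 of SAGA was 2.76-fold higher. Of 6 pausing and P-TEFb genes 4 were called higher in the morula, of 15 elongation genes 5, and of 11 SAGA genes 3.

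Not all partners ran this way. Of the 4 measured phosphatases of the polymerase tail, 3 had an adjusted p under 0.05 in the direction of the blastocyst by their brightest probes and none reached 2-fold. CTDSP1 gave 0.19 (adjusted p = 0.175), and dimmer probes ran the other way, without passing, at -0.27 for CTDSP1, -0.36 for CTDSP2 and -0.47 for SSU72. RPAP3, an assembly factor of the polymerase, was 1.88-fold higher in the blastocyst (adjusted p = 0.0010). Between ICM and TE 0 of the 57 were called with limma, and 2 had an adjusted p under 0.05. CCNC, the cyclin of the Mediator kinase module, had 0.12 and 0.12 for ICM and -0.48 and -0.62 for TE (1.59-fold, adjusted p = 0.034), and LEO1 of the PAF1 complex was 1.55-fold higher in the ICM (adjusted p = 0.030). MED12, the partner of CCNC, had a difference of -0.27 between ICM and TE (adjusted p = 0.46).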
